A study of Mus musculus with 20 samples.

Results

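The genes described here encode core proteins of the spliceosome and the RNA-binding splicing factors that act with it. They were chosen by symbol from the gene count table: every protein-coding gene of the GENCODE mouse annotation whose symbol begins with Srsf, Sf3a, Sf3b or Prpf and a number, or with Snrp, Hnrnp or U2af. The rule took 68 of 55487 genes in the table, and 66 of them passed the filter on low counts. BV-2 is an immortalised murine microglial cell line, so all libraries came from 1 line of wild-type genotype per the labels. Young cells were BV-2 cells at low passage and aged cells were BV-2 cells after long-term cultivation, frozen and then thawed together with the young ones. Each was left untreated or was exposed to lipopolysaccharide (LPS), a component of bacterial outer membranes that activates microglia, at 100 ng/ml for 6 hours. The 4 groups (young untreated, young LPS, aged untreated and aged LPS) had 5 mRNA libraries each, described as independent replicates, and the batch numbers 1 to 5 of the labels ran through all groups. The study was designed to find how in vitro ageing alters microglia and their reaction to LPS. The comparisons below ask how the levels of splicing factor mRNAs differed with each factor.

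Total counts per library ran from 11371508 to 16829292, and a count of 3 corresponded to 0.165 to 0.296 CPM (counts scaled to a common depth). Of 12 microglial markers, 11 lay above 3 counts in at least 1 library of each group except aged LPS, where 10 did. Sall1 was at or under 3 counts in every library, as was P2ry12 in aged LPS. The summed marker level was 1867 to 2481 CPM in young untreated, 2089 to 2860 in young LPS, 1547 to 2134 in aged untreated and 1744 to 2461 in aged LPS. None of 5 neuronal and none of 5 fibroblast markers exceeded 3 counts in any library. Between 0 and 1 of 5 astrocyte and between 1 and 2 of 5 oligodendrocyte markers did, with summed levels of at most 1.25 and 1.78 CPM. Of 5 endothelial markers, 1 or 2 did, with summed levels of 66.2 to 112 CPM, while Cdh5, Cldn5 and Tie1 stayed at or under 3 counts. The LPS libraries had scaling factors by the trimmed mean of M values (TMM) of 0.891 to 0.931 in young and 0.952 to 0.973 in aged cells, against 1.04 to 1.08 in the untreated libraries, and their part in the results is given with each comparison.

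Introns are removed from nuclear transcripts by the spliceosome, which assembles anew on each intron from small nuclear ribonucleoproteins (snRNPs). U1 recognises the 5′ splice site, U2AF and the SF3a and SF3b subunits of U2 define the 3′ splice site and the branch point, and many PRPF proteins belong to the U4/U6.U5 tri-snRNP or act in building the active complex. SR proteins bind exonic enhancers and recruit these particles, whereas hnRNPs coat nascent RNA and often oppose them, so that the balance of these proteins sets alternative exon choice. Alternative splicing is known to shape transcripts of immune activation genes in macrophage-lineage cells. The values below are mRNA levels of the factors. They measure neither the proteins nor splicing itself.

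All but 2 of the factors were detected. Levels are compared between genes only as reads per kilobase of merged exons, scaled for depth (RPKM), averaged over the 20 libraries. The highest was Hnrnpab, at 523 RPKM with a range of 460.2 to 612 over libraries. It encodes an hnRNP that shuttles between nucleus and cytoplasm. The next were Hnrnpa1 at 195 (152 to 248), Hnrnpa2b1 at 183 (161 to 203), the SR protein gene Srsf2 at 177 (152 to 214) and Snrpb at 158 RPKM (139 to 178), which encodes a protein of the Sm ring shared by most spliceosomal snRNPs. The ranges of Hnrnpa1, Hnrnpa2b1, Srsf2 and Snrpb overlapped, whereas the range of Hnrnpab lay above all of them. Such ranges pool all groups, so they do not show whether the order of neighbours held within each library. Among PRPF genes Prpf8, whose protein holds the active site of the spliceosome, led at 124 RPKM (109 to 134). U2af2 led the U2AF genes at 93.2 (75.7 to 111) and Sf3b2 the SF3 genes at 60.9 RPKM (55.4 to 64.4). The lowest of the tested factors were Hnrnpr at 6.47 (4.62 to 7.82), Prpf39 at 5.53 (4.07 to 7.22) and Prpf40b at 4.44 RPKM (3.31 to 6.06), and these 3 ranges also overlapped. Hnrnpr has the longest set of merged exons among those named here, 22199 bases, which lowers its value per length.

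**Figure D1:**
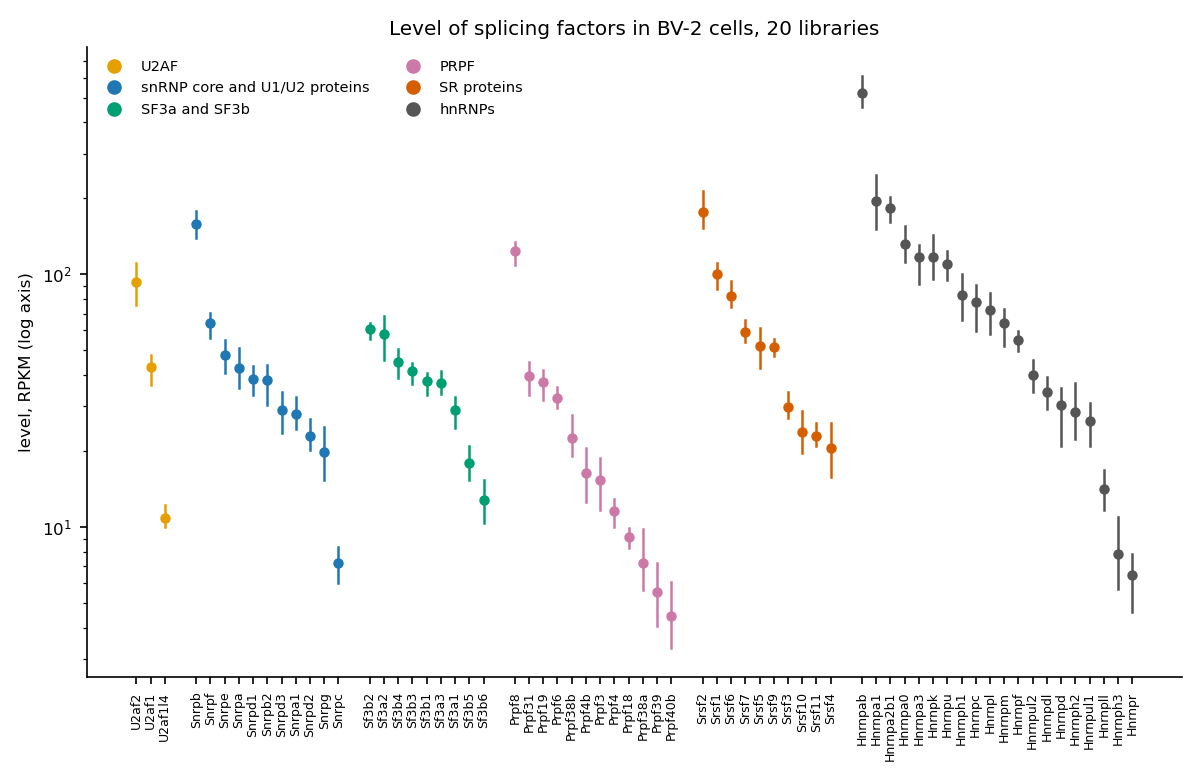
Level in RPKM (log axis) of 65 of the 66 tested factors, grouped by class and ordered by level within each class. Points are means over 20 libraries and lines run from the lowest to the highest library. Hnrnpab stands above all other factors shown, and most ranges within a class overlap their neighbours.

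Snrpn and Srsf12 had 0 counts in each of the 20 libraries, which allows up to 3 counts per library, or 0.165 to 0.296 CPM. Snrpn shares 27.3% of its exonic bases with Gm38393 and 10% with Snurf, both on the same strand. It also has near-identical stretches of up to 700 bases in 2 pseudogenes, so its count is uncertain. SmN, the product of Snrpn, takes the place of the Sm proteins made from Snrpb in neurons, and Srsf12 is an SR protein gene. Together the factors held 1.71% to 1.92% of all counts in young untreated, 1.65% to 1.72% in young LPS, 1.87% to 2.00% in aged untreated and 1.78% to 1.92% in aged LPS libraries. As a share of raw counts they were thus lower after LPS in young cells, where these ranges overlapped slightly. After TMM scaling the same sums had medians of 17093 and 18529 CPM in young cells without and with LPS and of 18279 and 19036 CPM in aged cells. The direction of the summed level therefore depended on the scaling.

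In young cells after LPS, the share of factors called was below that of all genes, and each change was modest in size. By edgeR's quasi-likelihood test, with adjustment over all 12799 genes, 29 factors rose and 11 fell with TMM scaling, and 26 did not pass. That is 40 of 66 called, against 64.6% of all genes tested. The 29 that rose compare with 31.2% of all genes and the 11 that fell with 33.5%. With library sizes alone in place of TMM, 3 rose and 28 fell, or 31 of 66 against 68.8% of all genes, the median of all genes then moving by -0.22 on the log2 scale. In bulk RNA, a change in the make-up of the cells and a change of RNA per cell cannot be told apart. The median of the factors was 0.13 with TMM and -0.094 with library sizes alone. Relative to the median of all genes it was 0.14, and 47 of 66 factors lay above that median. Both values were the same with either scaling. A change of scaling shifts all genes nearly alike, so this agreement was fixed in advance and is no check. The same holds for values relative to that median in each comparison below. Log2 fold changes ran from -0.47 to 0.50. None reached a size of 0.5 with an adjusted p below 0.05, whereas 35.1% of all genes did. Among the 7806 genes at least as abundant as the lowest tested factor, 71.6% were called and 30.5% were called at that size. This size limit and this abundance limit were chosen after the values were seen. With the batch number of the libraries as a block, 35 rose and 11 fell in young cells, or 46 of 66 against 67.7% of all genes. The added rises were Hnrnph1 at 0.17 (adjusted p = 0.013), Hnrnpu at 0.11 (adjusted p = 0.0135), Snrpa at 0.14 (adjusted p = 0.0354), Snrpb at 0.11 (adjusted p = 0.00408), Snrpe at 0.13 (adjusted p = 0.0226) and Srsf3 at 0.12 (adjusted p = 0.0475).

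In aged cells, 17 factors rose and 6 fell after LPS with TMM scaling, or 23 of 66 against 54.4% of all genes. The shares over all genes were 27.5% for a rise and 26.9% for a fall. With library sizes alone, 2 rose and 21 fell, or 23 of 66 against 59.8% of all genes, the median of all genes having moved by -0.16. The median of the factors was 0.085 with TMM and -0.075 with library sizes alone. In both cases it was 0.085 above the median of all genes, as it must be when all genes shift nearly alike. Changes ran from -0.44 to 0.37, again with none past 0.5, against 25.3% of all genes. Of the genes at least as abundant as the lowest tested factor 61.1% were called, and 20.7% at that size. With the batch number as a block, 27 rose and 7 fell in aged cells against a background of 58.5%. Hnrnpdl, Hnrnpu, Prpf3, Prpf40b, Sf3a2, Sf3b3, Snrpb, Snrpd3, Srsf6 and Srsf10 were among the added calls.

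The 4 groups of CPM values, all with TMM scaling, separated for fewer factors than the tests called. Separation with library sizes alone was not counted, either here or for the single factors and ages below, and it may differ. In young cells the 5 LPS libraries lay wholly above the 5 untreated ones for 15 factors and wholly below for 9, or 24 in all, against 49.1% of all genes tested. In aged cells they lay above for 10 and below for 4, against 40.1% of all genes.

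**Figure D2:**
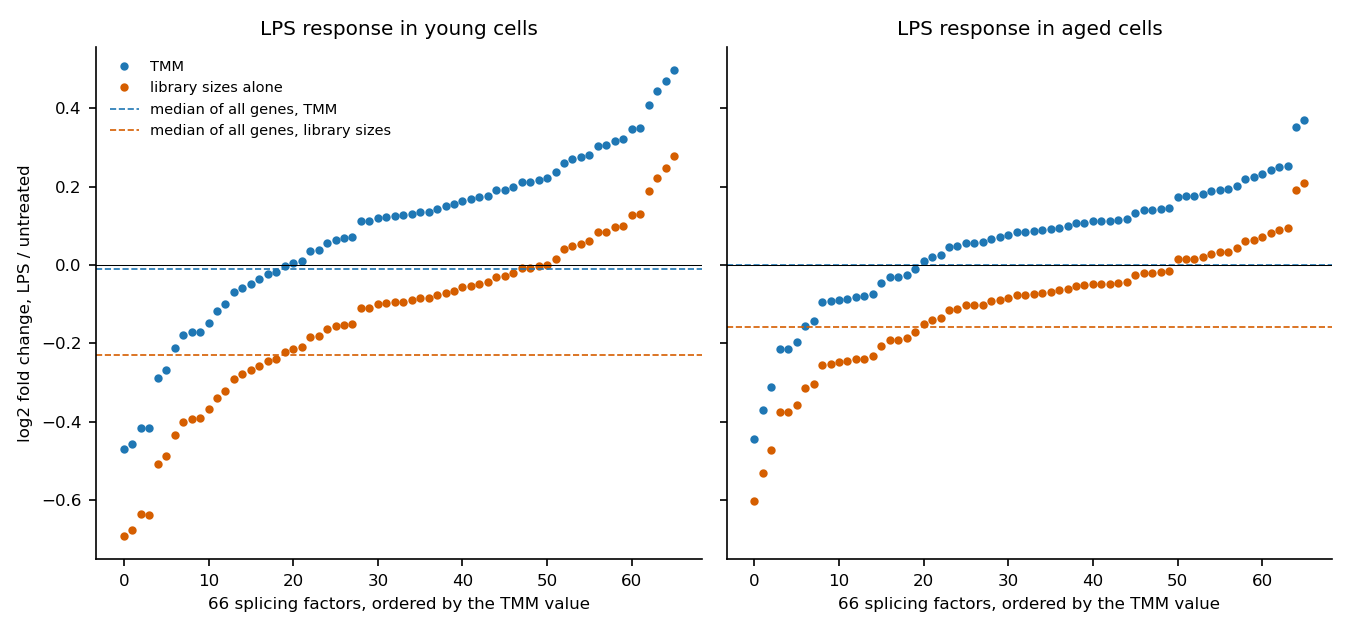
Log2 fold change of each factor after LPS in young (left) and aged (right) cells, with TMM scaling and with library sizes alone; factors are ordered by the TMM value and dashed lines give the median of all 12799 genes. The set moves with the median of all genes, so that 29 rises and 11 falls in young cells become 3 and 28, and 17 rises and 6 falls in aged cells become 2 and 21.

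Some factors were called in the same direction with TMM, with DESeq2's size factors and with library sizes alone. After LPS in young cells these were 3 that rose (Hnrnph2, Hnrnpk and Prpf38a) and 10 that fell (Hnrnpr, Srsf4, Prpf4b, Hnrnpul1, Hnrnpl, Hnrnpul2, Hnrnpa0, Prpf19, Prpf4 and Sf3a1). In aged cells they were 2 that rose (Hnrnph2 and Hnrnpk) and 6 that fell (Prpf4b, Hnrnpr, Srsf4, Hnrnpul1, Hnrnpl and Prpf4). How many of all genes were called alike under the 3 scalings was not counted. With library sizes alone, 27.3% of all calls in young and 28.4% in aged cells were rises, so falls outnumbered rises over all genes too. Of the factors, Hnrnph2, Hnrnpk, Hnrnpr, Hnrnpul1, Hnrnpl, Srsf4, Prpf4b and Prpf4 moved the same way at either age and under the 3 scalings.

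Upstream sequence is shown for the 5 of these 8 genes whose 120 bases before a RefSeq start overlapped annotated exons by at most 30 bases, since genes that move together may be compared by their promoters. Capitals mark matches of the motifs named below. The windows are from RefSeq on build GRCm38.p6, 5′ to 3′ on the strand of the gene: chr13:58402118-58402237 (minus strand), chr4:136310822-136310941 (plus), chr7:25754760-25754879 (minus), chr4:62408663-62408782 (plus) and chr4:131873517-131873636 (plus). Hnrnpk rose after LPS and the other 4 fell. For Hnrnpr and Srsf4 it is the start listed earliest of 2 and 3. The Hnrnpk window lies inside the longer GENCODE gene, with 25 of its bases in annotated exons, and that of Srsf4 holds 20 such bases.
Hnrnpk: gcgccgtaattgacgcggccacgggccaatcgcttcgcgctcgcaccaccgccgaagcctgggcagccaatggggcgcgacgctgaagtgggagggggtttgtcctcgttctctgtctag
Hnrnpr: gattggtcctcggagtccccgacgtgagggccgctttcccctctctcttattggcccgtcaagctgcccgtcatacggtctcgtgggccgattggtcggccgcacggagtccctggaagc
Hnrnpul1: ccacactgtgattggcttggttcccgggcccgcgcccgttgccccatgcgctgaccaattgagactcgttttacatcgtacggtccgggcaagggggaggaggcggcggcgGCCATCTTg
Prpf4: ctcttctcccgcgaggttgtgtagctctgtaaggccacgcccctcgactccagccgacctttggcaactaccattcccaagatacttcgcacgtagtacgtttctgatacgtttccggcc
Srsf4: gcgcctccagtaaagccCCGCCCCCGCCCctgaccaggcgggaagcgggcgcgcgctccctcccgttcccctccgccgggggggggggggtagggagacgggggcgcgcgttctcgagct

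The following motifs were searched on either strand in windows from 250 bases before to 50 bases after each start: ETS CCGGAAG, SP1 GGGCGG, NRF1 GCATGCGC, CRE TGACGTCA, YY1 AAGATGGC, NF-kappaB GGANTTTCC, AP-1 TGANTCA, ISRE GAAANNGAA and TATAAA of the TATA box. Matches of different motifs were allowed to overlap. RefSeq gave 80 windows for 59 of the 68 factors and 20139 windows for 16513 protein-coding genes. The ETS letters stood in 31.2% of the factors' windows and 11.9% of all windows, and the SP1 letters in 63.8% and 47.8%. NF-kappaB letters, those of a factor activated by LPS, stood in 2 of the 80 windows (2.50%) and in 1.32% of all windows. Shares for TATA were 8.75% and 12.2%, for ISRE 5.00% and 8.19%, for AP-1 3.75% and 6.99%, for NRF1 5.00% and 3.65%, for YY1 3.75% and 3.11% and for CRE 2.50% and 2.30%. The factors' windows had a median GC content of 60.2% and a median of 25 CpG dinucleotides, against 57.0% and 14 over all windows. Of the factors' windows, those of genes that rose in young cells held the ETS letters in 6 of 28, those of genes that fell in 5 of 14 and those of tested genes that were not called in 14 of 33. In the windows printed above, the YY1 letters lie near the end of that of Hnrnpul1, on the other strand, and the SP1 letters in that of Srsf4, also on the other strand, while the other 3 hold none of the motifs. Of the 120-base windows not printed, those of Hnrnph2 and Hnrnpl hold the SP1 letters and that of Prpf4b the AP-1, ETS and SP1 letters. The starts of Hnrnpr and Srsf4 not printed also have the SP1 letters. These are matches of letters, not sites shown to be bound.

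U2AF binds first at the 3′ splice site. The levels of U2af2, the large subunit that reads the polypyrimidine tract, were 314, 311, 312, 369 and 362 CPM in untreated young cells, 409, 419.9, 395, 458 and 441 in young cells after LPS, 371, 353, 348, 364 and 371 in untreated aged cells and 417, 402, 403, 411 and 434 in aged cells after LPS. The LPS libraries lay above the untreated ones at either age. The log2 fold change was 0.35 (SE 0.053, adjusted p = 5e-06) in young and 0.19 (SE 0.053, adjusted p = 0.0036) in aged cells with TMM scaling. Scaled by library sizes alone, it was 0.13 and 0.033, neither of which passed. The levels of U2af1, the small subunit that contacts the AG at the intron end, were 94.6, 97.2, 100.3, 109 and 103 CPM in untreated young cells, 108, 115, 118, 124 and 120.3 in young cells after LPS, 107, 107, 107, 109.6 and 109.9 in untreated aged cells and 111, 123, 119.6, 124 and 119 in aged cells after LPS. The LPS and untreated values overlapped in young and not in aged cells. U2af1 rose by 0.22 (SE 0.046, adjusted p = 0.000271) and 0.14 (SE 0.046, adjusted p = 0.0116) with TMM, and stood at -0.0020 and -0.017 with library sizes alone. U2af1l4, a paralogue of the small subunit, had 19.7, 17.2, 17.7, 18.4 and 16.7 CPM in untreated young cells, 20.2, 18.0, 17.0, 19.4 and 18.9 in young cells after LPS, 18.4, 16.6, 16.9, 17.6 and 17.0 in untreated aged cells and 18.5, 17.3, 17.5, 17.1 and 18.9 in aged cells after LPS. Its groups overlapped throughout, with changes of 0.057 (adjusted p = 0.449) in young and 0.048 (adjusted p = 0.547) in aged cells after LPS. It passed as a fall in young cells with library sizes alone, at -0.16 (adjusted p = 0.0257), and stood at -0.11 (adjusted p = 0.13) in aged cells. It shares 65.6% of its exonic bases with Gm49396 on the same strand, so its count is uncertain.

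Among the 11 tested snRNP proteins, 5 rose and none fell in young cells and 2 rose in aged cells with TMM, while with library sizes alone 0 rose and 1 fell in young and none was called in aged cells. The shares of all genes called, for this class and those below, were 64.6% in young and 54.4% in aged cells with TMM and 68.8% and 59.8% with library sizes alone. The 5 were Snrpb2 at 0.22 and Snrpa1 at 0.15, both proteins of U2, Snrpd3 at 0.21 and Snrpf at 0.13, both Sm ring proteins, and Snrpc at 0.17, which helps U1 hold the 5′ splice site. In aged cells Snrpa, the U1 protein that binds a loop of U1 RNA, rose by 0.19 and Snrpc by 0.18. Several of these calls were lost on leaving out 1 library. In young cells Snrpa1 was lost without untreated replicate 1 or 4 or LPS replicate 5, Snrpc without untreated replicate 2 or 3 or LPS replicate 5, and Snrpf without untreated replicate 1 or LPS replicate 5. In aged cells Snrpa was lost without untreated replicate 3 or LPS replicate 1, and Snrpc without untreated replicate 3 or LPS replicate 5. Snrpb was measured at 295, 281, 275, 289 and 309 CPM in untreated young cells, 320.0, 310.5, 292, 307 and 336 in young cells after LPS, 338, 308, 278, 308 and 331 in untreated aged cells and 343, 332, 309.8, 329 and 352 in aged cells after LPS. Groups overlapped in each comparison. Its changes after LPS were 0.11 (adjusted p = 0.0733) in young and 0.092 (adjusted p = 0.153) in aged cells, and with the block it passed at either age, at 0.11 (adjusted p = 0.00408) and 0.093 (adjusted p = 0.015). Snrpf shares 65.9% of its exonic bases with Ccdc38 on the opposite strand, with a mean of 22.3 counts against 796 for Snrpf.

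SF3a and SF3b belong to U2 and hold the branch point. Of 9 tested subunits, 4 rose and 1 fell in young cells and 2 rose in aged cells with TMM, whereas with library sizes alone none rose and 5 fell in young and 3 fell in aged cells. Sf3b1, whose protein clamps the branch-site helix, had 380.4, 399.7, 409, 414 and 406 CPM in untreated young cells, 460.4, 462, 448, 440.2 and 460.3 in young cells after LPS, 416, 431, 384, 415 and 412 in untreated aged cells and 446, 465, 417, 459 and 446 in aged cells after LPS. The LPS libraries lay above the untreated ones in young cells and overlapped in aged cells. It rose by 0.18 (SE 0.040, adjusted p = 0.00058) and 0.12 (SE 0.040, adjusted p = 0.0174) with TMM and stood at -0.045 and -0.043 with library sizes alone. The call in aged cells was lost without aged untreated replicate 3 or aged LPS replicate 2. Sf3b2, a partner of Sf3b4 in the same subcomplex, had 407, 410.2, 429.6, 434 and 413 CPM in untreated young cells, 405, 401, 378, 415 and 412 in young cells after LPS, 431, 423, 409.8, 431 and 416 in untreated aged cells and 409.9, 418, 422, 439 and 405 in aged cells after LPS. These values overlapped between groups, with changes of -0.058 (adjusted p = 0.184) in young and -0.011 (adjusted p = 0.825) in aged cells with TMM. It passed as a fall at either age with library sizes alone, at -0.28 (adjusted p = 2.37e-06) and -0.17 (adjusted p = 0.000946). Sf3a1 fell, at -0.15 in young cells, with the same call under the 3 scalings, while its partner Sf3a2 rose by 0.28 with TMM and did not pass with library sizes alone, at 0.061. The call of Sf3a1 was lost in a fit of the compared groups alone and without young untreated replicate 4 or 5 or young LPS replicate 2 or 3.

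Of the 13 PRPF genes, 7 rose and 4 fell in young cells with TMM, or 84.6% against 64.6% of all genes. In aged cells 2 rose and 2 fell, or 30.8% against 54.4% of all genes, while with library sizes alone 1 rose and 6 fell in young and 0 rose and 5 fell in aged cells. Prpf38a, which encodes a protein that joins the spliceosome at its activation, lies at chr4:108563172-108579336 on build GRCm38. Its levels were 33.1, 34.5, 29.8, 30.5 and 33.4 CPM in untreated young cells, 52.2, 48.9, 40.1, 37.8 and 44.7 in young cells after LPS, 34.7, 33.7, 38.0, 31.7 and 40.6 in untreated aged cells and 32.9, 42.3, 43.7, 41.1 and 37.0 in aged cells after LPS. In young cells every LPS library lay above every untreated one, and in aged cells the groups overlapped. Means were 32.2 ± 1.99 CPM without and 44.7 ± 5.95 CPM with LPS in young cells (SD, n = 5). The change was 0.47 (SE 0.091, adjusted p = 9.94e-05) in young and 0.14 (SE 0.090, adjusted p = 0.199) in aged cells, where library sizes alone gave -0.020.

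Prpf4b encodes a kinase that phosphorylates tri-snRNP proteins and lies at chr13:34875302-34906064. The values were 149, 150.3, 155, 160.4 and 142 CPM in untreated young cells, 112, 106, 117, 126 and 106 in young cells after LPS, 163, 174, 160.5, 171 and 156 in untreated aged cells and 113, 129.6, 117, 129.7 and 118 in aged cells after LPS. Every LPS library lay below every untreated one at either age. Means went from 151 ± 6.97 CPM to 113 ± 8.24 CPM in young and from 165 ± 7.23 CPM to 121 ± 7.89 CPM in aged cells (SD, n = 5). It fell in young cells, at -0.42 (SE 0.054, adjusted p = 5.39e-07), and in aged cells, at -0.44 (SE 0.054, adjusted p = 3.42e-07), and was the largest decrease among the factors in aged cells under TMM. Prpf4, a scaffold of the U4/U6 particle, fell by smaller amounts, with log2 fold changes of -0.17 and -0.14. The latter was no longer called without aged LPS replicate 5.

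Prpf39 and Prpf40b encode proteins associated with U1. Prpf39 had 53.7, 53.4, 65.0, 66.6 and 48.7 CPM in untreated young cells, 63.2, 70.5, 82.8, 86.5 and 62.6 in young cells after LPS, 61.7, 61.6, 61.1, 68.8 and 52.7 in untreated aged cells and 71.4, 76.8, 72.0, 80.8 and 64.0 in aged cells after LPS. The groups overlapped, and in each group the libraries of batch 4 were high and those of batch 5 low. Changes were 0.35 (SE 0.099, adjusted p = 0.00399) in young and 0.25 (SE 0.099, adjusted p = 0.0347) in aged cells with TMM, and 0.13 and 0.093 with library sizes alone, where neither passed. The call of Prpf39 in aged cells was lost on leaving out any of 7 libraries of aged cells (untreated replicates 1, 2, 3 and 5 and LPS replicates 1, 2 and 4). Prpf40b had 22.0, 19.0, 22.1, 21.0 and 16.4 CPM in untreated young cells, 30.0, 26.1, 29.3, 25.0 and 23.2 in young cells after LPS, 17.5, 18.4, 20.0, 21.5 and 17.0 in untreated aged cells and 20.6, 20.3, 25.5, 25.0 and 19.5 in aged cells after LPS. LPS libraries lay above untreated ones in young cells only, and the change was 0.41 (SE 0.10, adjusted p = 0.00104) in young and 0.23 (SE 0.10, adjusted p = 0.0554) in aged cells. The rise in young cells was 0.19 with library sizes alone and did not pass.

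Prpf31, which holds U4/U6 to U5, and Prpf8 went opposite ways in young cells with TMM. The values of Prpf31 were 204, 195, 181, 201 and 204 CPM in untreated young cells, 243, 237, 219, 223 and 238 in young cells after LPS, 196, 200.1, 221, 205 and 194 in untreated aged cells and 214, 228, 245, 242 and 229 in aged cells after LPS. It rose by 0.24 (SE 0.049, adjusted p = 0.00022) in young cells, where groups did not overlap, and by 0.19 (SE 0.049, adjusted p = 0.00247) in aged cells, where they did; with library sizes alone the values were 0.015 and 0.028. Prpf8 had 950.2, 879.6, 914, 998 and 929 CPM in untreated young cells, 955, 814, 847, 847 and 838 in young cells after LPS, 909, 997, 969, 1001 and 912 in untreated aged cells and 889, 946, 989, 972 and 888 in aged cells after LPS. Its groups overlapped, and the log2 fold change was -0.12 (SE 0.050, adjusted p = 0.0436) in young, where it passed, and -0.032 (SE 0.050, adjusted p = 0.623) in aged cells. Falls passed at either age with library sizes alone, at -0.34 (adjusted p = 1.9e-06) and -0.19 (adjusted p = 0.00175). The call of Prpf8 in young cells was lost with DESeq2, DESeq2's size factors, a fit of the compared groups alone and on leaving out any of 7 libraries of young cells (untreated replicates 1, 4 and 5 and LPS replicates 2, 3, 4 and 5).

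Of 10 SR proteins tested, 2 rose and 1 fell in young cells with TMM, or 30.0% against 64.6% of all genes. In aged cells 1 rose and 1 fell, or 20.0% against 54.4%, whereas with library sizes alone 0 rose and 6 fell in young and 7 fell in aged cells. Srsf4, an exonic enhancer binding protein located at chr4:131873617-131901706, had 70.4, 82.3, 82.6, 89.1 and 82.0 CPM in untreated young cells, 57.6, 56.3, 58.9, 63.6 and 59.8 in young cells after LPS, 82.7, 87.3, 73.0, 92.1 and 83.2 in untreated aged cells and 65.3, 73.9, 61.7, 68.2 and 68.1 in aged cells after LPS. In young cells each LPS library lay below each untreated one, and in aged cells the groups overlapped slightly. It fell in young cells, at -0.46 (SE 0.066, adjusted p = 2.46e-06), and in aged cells, at -0.31 (SE 0.065, adjusted p = 0.000338). Srsf4 shares 43.0% of its exonic bases with Gm12992 on the opposite strand. Srsf2, an enhancer binding protein that also acts in transcription, had 474, 467, 475, 487 and 459 CPM in untreated young cells, 537, 541, 542, 550.3 and 539.7 in young cells after LPS, 533, 538, 451, 519 and 497 in untreated aged cells and 576, 634, 522, 559 and 577 in aged cells after LPS. It rose by 0.20 (SE 0.050, adjusted p = 0.00141) in young cells, where the groups did not overlap, and by 0.18 (SE 0.050, adjusted p = 0.00484) in aged cells with TMM, but stood at -0.022 and 0.016 with library sizes alone.

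Further SR genes of known regulatory role did not pass after LPS with TMM and no block. Srsf1, the founding SR protein, had 561, 551, 549, 575 and 555 CPM in untreated young cells, 598, 531, 501, 527 and 544 in young cells after LPS, 591, 617, 548, 594 and 599 in untreated aged cells and 572, 631, 583, 634 and 581 in aged cells after LPS. Its changes were -0.048 (adjusted p = 0.397) in young and 0.025 (adjusted p = 0.688) in aged cells with TMM. Scaled by library sizes alone, Srsf1 passed as a fall at either age, at -0.27 (adjusted p = 2.74e-05) and -0.14 (adjusted p = 0.0173). Srsf3, the smallest SR protein, had 213, 226, 239, 216 and 218 CPM in untreated young cells, 271, 242, 238, 225 and 237 in young cells after LPS, 229, 239.9, 222, 240.4 and 219 in untreated aged cells and 233, 271, 249, 265 and 228 in aged cells after LPS. Its changes were 0.12 (adjusted p = 0.0562) and 0.11 (adjusted p = 0.0852). The rise in young cells passed with the block, at 0.12 (adjusted p = 0.0475), and with DESeq2 and its size factors. For both genes the untreated and LPS values overlapped at either age. Srsf7, which has a zinc knuckle, had 199.8, 206, 205, 200.4 and 199.7 CPM in untreated young cells, 223, 211, 207, 199 and 198 in young cells after LPS, 202, 213, 213, 223 and 207 in untreated aged cells and 191, 234, 221, 230.2 and 217 in aged cells after LPS. Its changes were 0.036 (adjusted p = 0.535) and 0.046 (adjusted p = 0.455), close to 0 with TMM, while with library sizes alone they were -0.18 and -0.11 and passed as falls. Srsf10, a repressor when dephosphorylated, had 156, 163, 176, 183 and 149.8 CPM in untreated young cells, 167, 146, 160.4, 162 and 137 in young cells after LPS, 171, 171, 189, 201 and 173 in untreated aged cells and 154, 174, 159, 178 and 149 in aged cells after LPS. Its changes were -0.10 (adjusted p = 0.209) and -0.15 (adjusted p = 0.0607), and with the block the fall in aged cells passed. The falls passed at either age when scaled by library sizes, at -0.32 (adjusted p = 0.000366) and -0.31 (adjusted p = 0.000573).

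The 20 hnRNP genes held both the largest rise and the largest fall of the factors in young cells. With TMM 9 rose and 5 fell in young cells, or 70.0% against 64.6% of all genes, and 8 rose and 3 fell in aged cells, or 11 of 20 against 54.4%, while with library sizes alone 2 rose and 9 fell in young and 2 rose and 6 fell in aged cells. Hnrnph2, an hnRNP that binds runs of G and lies at chrX:134601179-134607060, had 99.6, 111, 108, 113 and 100.1 CPM in untreated young cells, 126, 155, 149.6, 159 and 162 in young cells after LPS, 108, 113, 97.2, 108 and 103 in untreated aged cells and 147, 134, 119, 140.1 and 142 in aged cells after LPS. Every LPS library lay above every untreated one at either age. Means rose from 107 ± 6.37 CPM to 150.2 ± 14.6 CPM in young and from 106 ± 5.88 CPM to 137 ± 11.0 CPM in aged cells (SD, n = 5). The rise was 0.50 (SE 0.067, adjusted p = 9.71e-07) in young and 0.37 (SE 0.067, adjusted p = 6.85e-05) in aged cells. Hnrnpk, a poly(C)-binding hnRNP at chr13:58391142-58403343 whose upstream window is printed above, had 642, 654, 619, 620.2 and 672 CPM in untreated young cells, 888, 927, 822, 808 and 914 in young cells after LPS, 662, 674, 662, 634 and 684 in untreated aged cells and 816, 862, 834, 833 and 887 in aged cells after LPS. Its LPS libraries again lay above the untreated ones at either age. Means rose from 641 ± 22.5 CPM to 872 ± 54.1 CPM and from 663 ± 19.0 CPM to 846 ± 27.9 CPM (SD, n = 5). The rise was 0.44 (SE 0.044, adjusted p = 9.43e-09) in young and 0.35 (SE 0.044, adjusted p = 5.78e-07) in aged cells.

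Hnrnpr and Hnrnpl fell at either age. The levels of Hnrnpr, which encodes a nuclear RNA-binding protein and lies at chr4:136310942-136359447, were 164, 166, 160.3, 165 and 158 CPM in untreated young cells, 130.2, 114, 103, 124 and 115 in young cells after LPS, 162, 174, 162, 174 and 159.7 in untreated aged cells and 118, 134, 134, 141 and 117 in aged cells after LPS. All LPS libraries lay below all untreated ones at either age. Means went from 163 ± 3.27 CPM to 117 ± 10.5 CPM and from 166 ± 6.87 CPM to 129 ± 10.8 CPM (SD, n = 5). The log2 fold change was -0.47 (SE 0.059, adjusted p = 3.37e-07) in young and -0.37 (SE 0.059, adjusted p = 1.41e-05) in aged cells. Short stretches of it recur in transcripts of other genes, as given below, so its count is uncertain. Hnrnpl, which binds CA repeats, lies at chr7:28808541-28822266 and had 427, 443, 421, 479 and 476 CPM in untreated young cells, 357, 366, 347, 385 and 385 in young cells after LPS, 487, 483, 455, 502 and 489.5 in untreated aged cells and 409, 430.4, 404, 427 and 439 in aged cells after LPS. The LPS libraries lay below the untreated ones at either age. The log2 fold change was -0.29 (SE 0.046, adjusted p = 1.04e-05) in young and -0.20 (SE 0.046, adjusted p = 0.00104) in aged cells. Its paralogue Hnrnpll, known for the exon choice of Ptprc in lymphocytes, went the other way with TMM. Hnrnpll had 136, 143, 150.4, 146 and 152 CPM in untreated young cells, 170.3, 174, 189, 177 and 189.5 in young cells after LPS, 156, 155, 161, 153 and 156 in untreated aged cells and 172, 183, 177, 169.9 and 197 in aged cells after LPS, without overlap at either age. It rose by 0.31 (SE 0.046, adjusted p = 4.18e-06) and 0.20 (SE 0.046, adjusted p = 0.000706) with TMM, and with library sizes alone stood at 0.085 and 0.042, which did not pass.

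Hnrnpul1, an hnRNP U-like protein, had 249, 255, 256, 267 and 258 CPM in untreated young cells, 212, 186, 188, 197 and 181 in young cells after LPS, 257, 254, 238, 254 and 236 in untreated aged cells and 209, 219.8, 211, 222 and 206 in aged cells after LPS. It fell, at -0.42 (adjusted p = 2.21e-08) in young and -0.22 (adjusted p = 0.000244) in aged cells, in both without overlap. Hnrnpa0, an hnRNP of AU-rich elements, had 346, 356, 362, 371 and 356 CPM in untreated young cells, 329, 326, 315, 312 and 299 in young cells after LPS, 399, 415, 348, 375 and 355 in untreated aged cells and 338, 407, 341, 360.2 and 327 in aged cells after LPS. In young cells the LPS libraries lay below the untreated ones, and in aged cells they overlapped. The log2 fold change was -0.18 (SE 0.056, adjusted p = 0.00825) in young cells, and the change in aged cells was -0.093 (SE 0.056, adjusted p = 0.17). In aged cells it passed as a fall with library sizes alone, at -0.25 (adjusted p = 0.000681).

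Hnrnpab, Hnrnpa1 and Hnrnpd rose with TMM at either age and did not pass with library sizes alone. Hnrnpab had 1299, 1289, 1334, 1308 and 1280.4 CPM in untreated young cells, 1694, 1602, 1512, 1481 and 1561 in young cells after LPS, 1361, 1414, 1366, 1329 and 1291 in untreated aged cells and 1541, 1702, 1665, 1589 and 1497 in aged cells after LPS, with no overlap between LPS and untreated libraries at either age. The rise was 0.27 (SE 0.044, adjusted p = 1.37e-05) and 0.24 (SE 0.044, adjusted p = 7.91e-05), against 0.048 and 0.082 with library sizes alone. Hnrnpa1, which opposes SR proteins at many exons, had 478, 506, 546, 553 and 514 CPM in untreated young cells, 675, 645, 632, 653 and 631 in young cells after LPS, 539, 616, 611, 675 and 544 in untreated aged cells and 583, 717, 768, 782 and 639 in aged cells after LPS. The groups were apart in young cells and overlapped in aged cells. The rise was 0.32 (SE 0.073, adjusted p = 0.00059) and 0.22 (SE 0.073, adjusted p = 0.0118), against 0.096 and 0.065. Hnrnpd, also known as AUF1 for its binding to AU-rich mRNA, had 153, 189.9, 193, 229 and 194 CPM in untreated young cells, 228, 249, 219.9, 260.3 and 239.8 in young cells after LPS, 241, 211, 183, 202 and 216 in untreated aged cells and 250.4, 259, 245, 251 and 245 in aged cells after LPS. It rose by 0.32 (SE 0.079, adjusted p = 0.00109) in young cells, where the groups overlapped, and by 0.25 (SE 0.078, adjusted p = 0.00997) in aged cells, where they did not, against 0.10 and 0.089 with library sizes alone. Hnrnpu, a nuclear scaffold protein, had 1106, 1155, 1262, 1258 and 1121 CPM in untreated young cells, 1306, 1266, 1277, 1309 and 1221 in young cells after LPS, 1264, 1335, 1268, 1310.3 and 1123 in untreated aged cells and 1307, 1429, 1430.2, 1403 and 1238 in aged cells after LPS, which overlapped. Its changes were 0.11 (adjusted p = 0.0744) and 0.11 (adjusted p = 0.0865), and with the block it passed as a rise at either age, at 0.11 (adjusted p = 0.0135) and 0.11 (adjusted p = 0.0178).

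**Figure D3:**
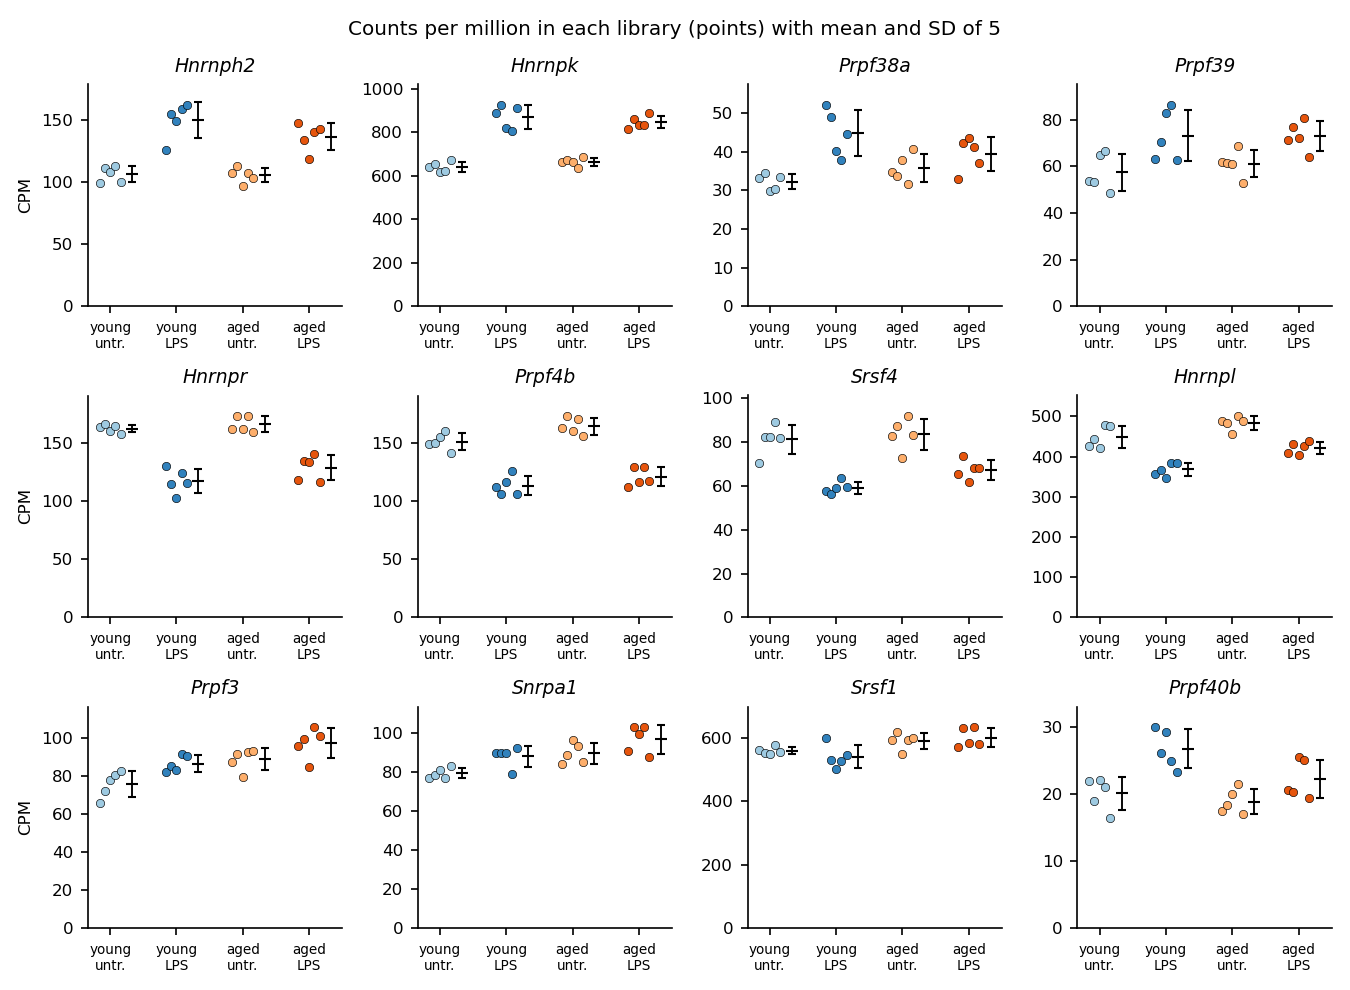
CPM after TMM scaling of 12 factors in each library (points), with the mean and SD of 5 libraries beside them; axes start at 0. Hnrnph2 and Hnrnpk lie higher, and Hnrnpr, Prpf4b and Hnrnpl lower, in every LPS library than in every untreated library of the same age, with the same calls under 3 scalings, whereas the untreated young and aged libraries of Prpf3 overlap.

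The responses of young and aged cells share no library and can be set side by side. Of the 66 factors, 22 were called in both in the same direction (16 higher and 6 lower with TMM), 18 in young cells only, 1 in aged cells only and 25 in neither. Of all 12799 genes, 6442 were called in both in the same direction, 3218 of them higher. A further 1821 were called in young cells only, 519 in aged cells only and 4010 in neither. By library sizes alone 22 were also called in both, of which 2 were higher and 20 lower. Over all genes these were 7195, of which 1982 were higher and 5213 lower. The signs matched for 58 of 66 factors, or 87.9%, against 89.2% of all genes. Across the 66 factors the correlation of the 2 responses was 0.940, and across all genes 0.947, both as descriptions across genes, which are not independent replicates. The change was larger in size in young than in aged cells for 54 factors, or 81.8%, against 73.1% of all genes. With library sizes alone it was larger for 55, against 75.2% of all genes, and with DESeq2's size factors for 57, against 73.4%.

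The difference between the 2 responses was tested by the interaction of age and LPS. None of the 66 factors passed by edgeR's quasi-likelihood test, against 6.39% of all genes. By the same test 3 factors had an unadjusted p below 0.05, against 2481 of all 12799 genes. The median of the interaction over the factors was -0.035 with TMM and 0.025 with library sizes alone, or -0.054 and -0.053 relative to the median of all genes. Intervals of 95% lay within 0.3 on either side of 0 for 48 factors and within 0.4 for 62, so that larger differences in response were outside the interval for these. The nearest to passing was Hnrnpul1 at 0.20 (SE 0.062, adjusted p = 0.0567), which passed with DESeq2 (0.18, adjusted p = 0.0495), with the block (0.20, adjusted p = 0.0244) and with library sizes alone (0.26, adjusted p = 0.0131). Its fall after LPS was thus smaller in aged cells by these fits, while the test with TMM and no block missed the threshold. Leaving out young LPS replicate 1 also made it pass. Hnrnpul1 falls outside the rule for full values and was chosen after its values were seen. Prpf38a had the largest interaction in size, -0.33 (SE 0.13, adjusted p = 0.144), with an interval of -0.59 to -0.063. For U2af2 it was -0.15 (SE 0.075, adjusted p = 0.264). A call in young and not in aged cells, as for 18 factors, was therefore not shown to be a difference between ages.

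**Figure D4:**
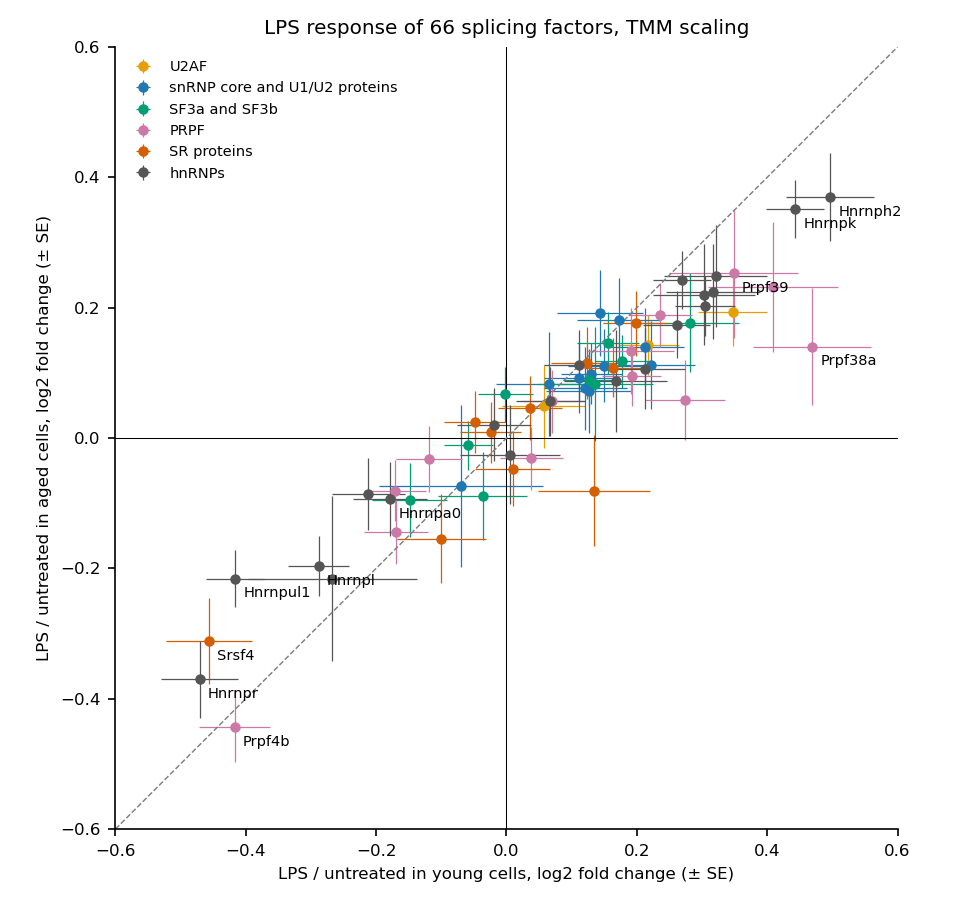
Log2 fold change after LPS in young (horizontal) and aged (vertical) cells for 66 factors with TMM scaling, with standard errors, coloured by class. Most points lie nearer to 0 on the vertical axis than the dashed line of equal response, 54 of 66 in size, and none of the differences passed in the test of interaction. With library sizes alone most factors would lie below 0, with 3 rises and 28 falls in young and 2 rises and 21 falls in aged cells.

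Untreated aged and young cells differed little in these mRNAs. Prpf3 and Snrpa1 were higher in aged cells and no factor was lower by edgeR's quasi-likelihood test, that is 2 of 66 against 11.5% of all genes tested, of which 3.71% were higher and 7.81% lower. At an unadjusted p below 0.05 there were 11 of 66, against 3301 of all 12799 genes. Prpf3, a tri-snRNP protein next to Prpf4 and Prpf31 located at chr3:95830124-95855885, had 65.9, 72.0, 78.2, 80.6 and 82.8 CPM in untreated young cells, 82.2, 85.3, 83.3, 91.8 and 90.5 in young cells after LPS, 87.5, 91.7, 79.7, 92.7 and 93.2 in untreated aged cells and 95.9, 99.7, 85.0, 106 and 101 in aged cells after LPS. Young and aged untreated values overlapped. The difference was 0.23 (SE 0.066, adjusted p = 0.027). Snrpa1, the U2 protein that pairs with Snrpb2 and lies at chr7:66059003-66074587, had 77.3, 78.9, 81.1, 77.3 and 83.2 CPM in untreated young cells, 90.0, 89.8, 90.1, 79.0 and 92.7 in young cells after LPS, 84.2, 89.0, 96.5, 93.5 and 85.6 in untreated aged cells and 90.7, 103, 99.7, 103 and 87.7 in aged cells after LPS. The aged untreated values lay above the young ones. The difference was 0.17 (SE 0.056, adjusted p = 0.046). Both calls held under the 3 scalings, but each was lost on leaving out young untreated replicate 1 or 2 or aged untreated replicate 2 or 4, where the count of calls was 0. Prpf3 was also lost without aged untreated replicate 5, and Snrpa1 without young untreated replicate 3 or 4, young LPS replicate 2 or 3 or aged untreated replicate 3.

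Most factors leaned the same way in aged cells without passing. The estimate was above 0 for 57 of 66 factors, against 46.4% of all genes, and the median was 0.079, against -0.014 over all genes. The median was 0.10 with library sizes alone, and 60 were above 0. All factors share the same 10 libraries, so these estimates are not independent of each other. Differences ran from -0.090 to 0.23, and all 66 intervals of 95% lay within 0.4 on either side of 0, 59 of them within 0.3 and 38 within 0.2. The median of the SF3 subunits was 0.069 and that of the hnRNPs 0.086. With the batch number as a block, 6 factors were higher and none lower, against 17.2% of all genes. The added ones were Hnrnpa1 at 0.20 (adjusted p = 0.0182), Hnrnpl at 0.11 (adjusted p = 0.0223), Snrpb at 0.11 (adjusted p = 0.0226) and U2af2 at 0.12 (adjusted p = 0.0439). Untreated aged and young libraries did not overlap for 3 factors, all higher in aged cells, against 10.4% of all genes.

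**Figure D5:**
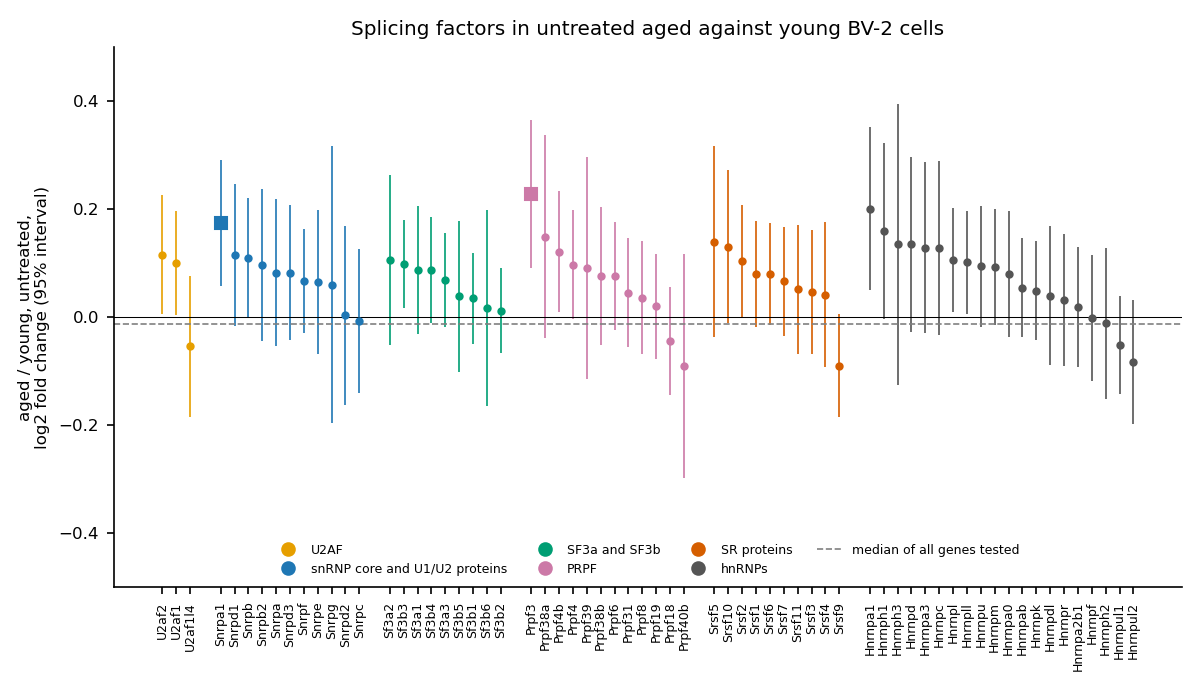
Log2 fold change of aged against young untreated cells for 65 of the 66 tested factors with 95% intervals, by class; larger squares are the 2 factors that passed, Prpf3 and Snrpa1. The dashed line gives the median of all genes tested, and over all 66 factors 60 estimates lie above that median.

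After LPS, aged cells had higher levels of 6 factors and a lower level of 1 than young cells with TMM, or 7 of 66 against 29.0% of all genes, of which 14.0% were higher and 15.0% lower. The 6 were Hnrnpl at 0.20 (adjusted p = 0.00265), Srsf4 at 0.19 (adjusted p = 0.0394), Hnrnpa0 at 0.17 (adjusted p = 0.0312), Srsf1 at 0.15 (adjusted p = 0.0193), Hnrnpul1 at 0.15 (adjusted p = 0.0136) and Sf3a3 at 0.14 (adjusted p = 0.0167). Of these, 4 (Hnrnpl, Srsf4, Hnrnpa0 and Hnrnpul1) were among those that fell after LPS in young cells. These comparisons share the young LPS libraries. Hnrnpl was the only factor whose aged and young LPS libraries did not overlap, against 14.8% of all genes. Prpf40b was lower, at -0.27 (adjusted p = 0.0477). Hnrnpl, Srsf1, Hnrnpul1 and Sf3a3 were called under the 3 scalings, while library sizes alone called 23 higher and none lower, or 23 of 66 against 35.3% of all genes. Srsf4 and Hnrnpa0 were not called with DESeq2's size factors. The median of the factors was 0.038 with TMM, or 0.030 above that of all genes, and 0.12 with library sizes alone, or 0.031 above it. With the block, 10 were higher and 1 lower against 33.4% of all genes, the added ones being Prpf19, Prpf3, Sf3a1 and Snrpb. Leaving out young LPS replicate 3 or aged LPS replicate 2 left 3 calls, Hnrnpl, Hnrnpul1 and Sf3a3, and leaving out young LPS replicate 2 or aged LPS replicate 4 left 4. Sf3a3 was lost without young LPS replicate 2. Prpf40b lost its call without any of several libraries, those of untreated groups among them.

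A list of 138 other genes of splicing and its regulation, outside the symbol rule, gave the surroundings of these factors, and 137 were tested. In young cells 50 rose and 24 fell after LPS with TMM, or 54.0% against 64.6% of all genes. In aged cells 41 rose and 17 fell, or 42.3% against 54.4%. By library sizes alone, 16 rose and 74 fell in young and 9 rose and 65 fell in aged cells. The list reached sizes that the chosen factors did not. Mbnl2, a muscleblind regulator of alternative exons, had 108, 93.1, 87.5, 83.6 and 85.1 CPM in untreated young cells, 230.2, 230.3, 220.1, 203 and 192 in young cells after LPS, 70.6, 76.0, 81.9, 77.4 and 77.7 in untreated aged cells and 174, 145, 171, 143 and 169.6 in aged cells after LPS. It rose by 1.23 (SE 0.075, adjusted p = 1.7e-12) in young and 1.07 (SE 0.075, adjusted p = 4.39e-11) in aged cells, with LPS libraries far above untreated ones. Rbmx, an hnRNP G protein by its older name, had 43.4, 32.0, 31.1, 39.3 and 31.8 CPM in untreated young cells, 81.1, 77.7, 77.7, 81.0 and 78.5 in young cells after LPS, 36.4, 35.1, 42.4, 42.8 and 36.8 in untreated aged cells and 73.7, 82.3, 74.2, 83.2 and 73.9 in aged cells after LPS. It rose by 1.16 (SE 0.081, adjusted p = 2.21e-11) and 1.00 (SE 0.081, adjusted p = 4.48e-10), without overlap. Magohb, an exon junction complex subunit, rose from 7.66, 7.93, 8.57, 8.11 and 8.45 CPM to 14.8, 15.8, 13.0, 18.5 and 16.6 CPM in young and from 8.67, 9.35, 8.73, 9.94 and 9.52 CPM to 15.9, 16.9, 15.5, 18.4 and 13.6 CPM in aged cells, without overlap. It shares 30.2% of its exonic bases with Gm44958. Its log2 fold changes were 0.95 (adjusted p = 7.48e-09) and 0.79 (adjusted p = 1.6e-07).

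Falls in the list were as large. Celf2, an antagonist of muscleblind proteins at some exons, had 66.1, 82.2, 86.9, 85.7 and 80.8 CPM in untreated young cells, 32.7, 34.6, 36.4, 35.3 and 31.3 in young cells after LPS, 76.7, 82.8, 68.9, 80.5 and 81.9 in untreated aged cells and 40.1, 39.9, 34.5, 39.1 and 39.9 in aged cells after LPS. It fell, at -1.24 (SE 0.072, adjusted p = 8.8e-13) in young and -1.01 (SE 0.071, adjusted p = 4.21e-11) in aged cells, without overlap. Cirbp, a cold-inducible RNA-binding protein, went from 8.55, 7.80, 8.39, 9.49 and 7.26 CPM to 2.57, 3.32, 4.48, 3.95 and 3.68 CPM in young and from 7.24, 5.52, 7.14, 6.32 and 7.39 CPM to 3.65, 3.88, 4.83, 4.88 and 4.05 CPM in aged cells, without overlap. Its changes were -1.19 (adjusted p = 4.56e-08) and -0.66 (adjusted p = 0.000167). Ppil1, a peptidyl-prolyl isomerase of the activated spliceosome, had 69.7, 79.3, 75.0, 70.5 and 90.1 CPM in untreated young cells, 41.2, 38.5, 37.4, 35.0 and 44.1 in young cells after LPS, 81.8, 85.8, 77.3, 77.1 and 88.0 in untreated aged cells and 49.2, 57.8, 55.3, 55.1 and 57.4 in aged cells after LPS. It fell, at -0.97 (SE 0.073, adjusted p = 7.53e-11) and -0.58 (SE 0.071, adjusted p = 4.26e-07). Gemin8, a subunit of the SMN complex that loads Sm rings onto snRNA, went from 5.52, 5.37, 5.37, 5.27 and 5.79 CPM to 3.46, 2.99, 2.34, 3.06 and 3.24 CPM in young and from 6.86, 6.33, 5.19, 5.55 and 6.79 CPM to 3.09, 3.79, 3.10, 2.79 and 3.69 CPM in aged cells. Its changes were -0.86 (adjusted p = 1.81e-06) and -0.90 (adjusted p = 1.05e-06).

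Of 15 snRNP assembly genes in the list, 3 were higher in untreated aged cells, Ddx20, Prmt5 and Smn1, against 3.71% of all genes. Ddx20, the helicase of the SMN complex also called Gemin3, had 67.3, 63.2, 63.3, 67.6 and 68.9 CPM in untreated young cells, 70.2, 60.2, 66.3, 65.1 and 62.5 in young cells after LPS, 80.5, 86.5, 84.7, 81.2 and 82.0 in untreated aged cells and 78.4, 80.7, 78.4, 86.0 and 82.5 in aged cells after LPS. The aged libraries lay above the young ones with and without LPS. The difference was 0.33 (SE 0.046, adjusted p = 7.32e-05) untreated and 0.32 (SE 0.047, adjusted p = 1.85e-05) after LPS. Prmt5, the methyltransferase that modifies Sm proteins, had 179, 175, 177, 183 and 179.9 CPM in untreated young cells, 222, 198, 209, 198 and 210.3 in young cells after LPS, 211, 217, 213, 219.7 and 206 in untreated aged cells and 226, 247, 244, 235 and 231 in aged cells after LPS, again without overlap. The difference was 0.26 (SE 0.039, adjusted p = 0.00019) and 0.19 (SE 0.039, adjusted p = 0.000824). Smn1, the survival motor neuron gene, had 65.5, 69.9, 63.3, 70.1 and 74.7 CPM in untreated young cells, 76.8, 72.0, 72.7, 71.2 and 78.7 in young cells after LPS, 84.1, 82.8, 74.0, 79.6 and 79.1 in untreated aged cells and 76.9, 82.4, 77.2, 80.0 and 82.7 in aged cells after LPS. Untreated groups overlapped by a narrow margin, and the difference was 0.22 (SE 0.050, adjusted p = 0.00625) untreated and 0.10 (SE 0.050, adjusted p = 0.132) after LPS. Over the whole list 8 were higher and 1, Mbnl2 at -0.25 (adjusted p = 0.0305), was lower in untreated aged cells, or 6.57% against 11.5% of all genes. With the block it was 18 and 2 and with DESeq2 17 and 2. The number higher was 4 without young untreated replicate 2 or 3 or aged untreated replicate 2 or 4, 5 without young untreated replicate 1 and 13 without young untreated replicate 4. Mbnl2 was no longer lower without young untreated replicate 1 or 2 or aged untreated replicate 2 or 4.

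After LPS 15 genes of the list were higher and 6 lower in aged cells with TMM, or 15.3% against 29.0% of all genes, and 50 higher and 1 lower with library sizes alone. Ppil1 was higher by 0.49 (adjusted p = 3.25e-05), Ddx20 as above, and Gemin6, of the SMN complex, by 0.30 (adjusted p = 0.00382), the Gemin6 values being 27.1, 24.1, 23.2, 25.2 and 27.6 CPM in young and 27.9, 33.8, 30.1, 34.5 and 30.6 CPM in aged cells. The lower ones included Mbnl2 at -0.42 (adjusted p = 0.00015), Snrnp35 of the minor spliceosome at -0.26 (adjusted p = 0.0114) and Syf2, of the activated complex, at -0.22 (adjusted p = 0.00833). In the interaction 3 of 137 passed, or 2.19% against 6.39% of all genes. Ppil1 fell less in aged cells, with an interaction of 0.40 (SE 0.10, adjusted p = 0.0213). Mbnl1, the paralogue of Mbnl2, had 252, 275, 263, 274 and 256 CPM in untreated young cells, 149.9, 154, 163, 165 and 147 in young cells after LPS, 240.0, 256, 248, 243 and 253 in untreated aged cells and 165, 179, 161, 174 and 165 in aged cells after LPS, and fell, at -0.76 in young and -0.55 in aged cells, with an interaction of 0.21 (SE 0.061, adjusted p = 0.0459). That call was lost in 17 of 26 alternatives that kept the limit of 0.05 on adjusted p. Fubp1, which binds single-stranded DNA and RNA, had 222, 219, 223, 221 and 246 CPM in untreated young cells, 336, 293, 309, 317 and 321 in young cells after LPS, 241, 259, 242, 251 and 249 in untreated aged cells and 272, 277, 289, 298 and 306 in aged cells after LPS, and rose by 0.48 and 0.21, with an interaction of -0.26 (SE 0.065, adjusted p = 0.0157), a call lost in 2 of 26 alternatives.

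The counts of some factors could hold reads of other genes. Beyond U2af1l4, Snrpf and Srsf4, Hnrnpab shares 29.1% of its exonic bases with Phykpl, Sf3a2 16.1% with Plekhj1 and Prpf31 18.1% with Gm15927, each on the opposite strand, and Hnrnpm shares 14.7% with March2 on the same strand. Whether counting used strand is not given in the sources used here. Transcripts at other loci with at least 95% identity over at least 100 bases were found for 22 of 68 factors, for 18 of them at pseudogenes alone. Hnrnpa3 had 26 such pseudogenes, and pseudogenes held at most 5.74% of the mean count of a factor, for Snrpg. Hnrnpr had matches at 11 loci, 8 of them not pseudogenes, among them Git2, Rsf1 and Txnl4a. The matches to those 8 were at most 137 bases long, against 22199 bases of merged exons in Hnrnpr. Counts at the 11 loci summed to a mean of 3904, or 186% of the 2104 of Hnrnpr, and how reads of the shared stretches were assigned was not tested. Hnrnpa1, Hnrnpa3 and Srsf3 had 1 other gene each that was not a pseudogene, and all their matched loci held at most 1.25% of their mean count.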

How the data were processed

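Poly(A) mRNA of 20 BV-2 libraries was sequenced with paired ends after a stranded kit. Per the labels and methods, the authors aligned reads with STAR 2.6.1d to GRCm38 and made gene counts with featureCounts 1.5.1; the deposited table holds these raw counts for 55487 genes. Settings for strand and multi-mapping reads are not given in the sources used here. All 20 columns were matched to samples by name. The 5 libraries per group are called independent replicates by the study, all from 1 line. Per its methods, the aged cells were frozen after long cultivation and later experiments drew on the frozen aliquots. Whether the 5 aged libraries stem from more than 1 long-term culture is not stated. The age contrasts may therefore not measure the spread between ageing cultures.

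Genes were typed and located with GENCODE vM21 (GRCm38). Counts were fitted with edgeR 4.0.16 (R 4.3.3): all 20 libraries, 1 term per group, TMM scaling, filterByExpr (12799 genes kept), quasi-likelihood F-test and Benjamini-Hochberg adjustment over all genes tested, calls at an adjusted p below 0.05. The 5 contrasts were age without LPS, age with LPS, LPS in young, LPS in aged and their interaction. The study itself used DESeq2; here DESeq2 1.42.0 was an alternative, as the table holds counts. SE is the log2 fold change over the root of F. CPM values use TMM-scaled library sizes. Scripts were tested on simulated counts. The factors and gene lists were chosen with earlier results of these data known. Values per library are given for the 3 largest called increases and decreases in each contrast, the most abundant member of each of 6 classes and 17 factors of known role, and for other splicing genes by the same 3 and 3.

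The labels give batch numbers but not what a batch is, so pairing libraries by them is an assumption. Deviations of same-numbered libraries from their group means correlated at 0.27 on average within an age (0.12 to 0.39, 10 pairs). Across ages the averages were 0.077 within a treatment (-0.21 to 0.27) and 0.093 for pairs sharing neither (-0.075 to 0.22). The calls that the block added between ages rest on this weaker pairing. Library pairs within groups differed beyond counting noise (chi-square per degree of freedom 2.37 to 25.7, 40 pairs). Alternatives were DESeq2, the batch as a block, the size factors of DESeq2, raw library totals without TMM, no filter, at least 10 counts in every library, fits of the compared groups alone, an adjusted p below 0.01 and leaving out each library. A size limit of 0.5 and a background of genes as abundant as the factors were added after seeing the data. Of the factors tested, 1 enters the counts but is not reported here.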

Additional observations from a re-analysis of the deposited data

Results flagged for a closer look

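In 2 of 120 sets of 5 libraries (30 factors in 4 groups), 1 library stood apart from the other 4 by Dixon's criterion of 0.71; about 1 in 20 sets does so by chance. Prpf8 was 955 CPM in young LPS replicate 1, with the other 4 libraries at 814 to 847 CPM. That value lay within the range of untreated young cells, and the fall of Prpf8 in young cells was still called without this library. Snrpa1 was 79.0 CPM in young LPS replicate 4, with the other 4 at 89.8 to 92.7 CPM.

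The response to LPS differed between young and aged cells by the test of interaction (edgeR's quasi-likelihood test) for 3 genes of the list of other splicing genes. The interaction was 0.40 for Ppil1, 0.21 for Mbnl1 and -0.26 for Fubp1 on the log2 scale. Over 26 alternatives the call of Ppil1 was never lost, with values of 0.33 to 0.46. That of Fubp1 was lost in 2, with library sizes alone (-0.20, adjusted p = 0.0569) and without a filter (-0.26, adjusted p = 0.0592). That of Mbnl1 was lost in 17, among them 15 in which a library was left out, with values of 0.18 to 0.27 over these 26 alternatives. At an adjusted p below 0.01 by edgeR's quasi-likelihood test, all 3 calls were lost.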

How the results depend on the processing

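The largest dependence was on scaling. With library sizes alone, 3 factors rose and 28 fell after LPS in young cells (median -0.094) and 2 rose and 21 fell in aged cells (median -0.075). Of the other splicing genes 16 rose and 74 fell and 9 rose and 65 fell. Between ages after LPS, 23 factors were higher and 0 lower (median 0.12), with 50 and 1 of the other genes, and in the interaction 1 factor was higher (median 0.025), with 4 and 0 of the others. Of the 66 factors, 46 were above 0 after LPS with TMM and 16 with library sizes alone, at either age. The turns of direction listed here are only those of factors chosen for full values, with a call in either fit. In young cells they were Prpf3 (-0.030), Sf3b1 (-0.045), Snrpa1 (-0.071), Srsf2 (-0.022), Srsf7 (-0.18), U2af1 (-0.0020) and U2af1l4 (-0.16). In aged cells they were Sf3b1 (-0.043), Srsf1 (-0.14), Srsf7 (-0.11) and U2af1 (-0.017). The alternative itself shifts every gene by the difference in scaling factors. Size factors of DESeq2 left 1 other gene higher in the interaction.

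With the replicate block, which pairs libraries by batch, 6 factors were higher in untreated aged cells, 27 rose after LPS in aged cells, 10 were higher in aged cells after LPS and 1 in the interaction. Of the other genes 18 were higher and 2 lower in untreated aged cells, 26 fell after LPS in aged cells and 2 were lower in the interaction. The block ended no call of a factor named with full values. With DESeq2, 17 other genes were higher and 2 lower in untreated aged cells, 10 lower in aged cells after LPS and 2 lower in the interaction, where 1 factor was higher. Without a filter 1 factor and 5 other genes were higher in untreated aged cells, 25 other genes rose after LPS in aged cells, 0 factors were lower in aged cells after LPS, and 1 other gene was higher and 0 lower in the interaction. A fit of the compared groups alone left 0 factors lower in aged cells after LPS. At an adjusted p below 0.01, 0 factors and 3 other genes were higher and 0 other genes lower in untreated aged cells, 9 factors and 26 other genes rose after LPS in aged cells, 1 factor was higher and 0 factors and 2 other genes lower in aged cells after LPS, and 0 other genes passed in the interaction. With a size limit of 0.5, added after seeing the data, 0 factors rose or fell after LPS at either age. The causes were not tested.

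Leaving out each library in turn gave the following lowest and highest values. In untreated aged against young cells 0 to 3 factors were higher and 0 to 0 lower (median 0.061 to 0.088), and 4 to 13 and 0 to 2 other genes. After LPS in young cells 26 to 33 factors rose and 9 to 12 fell (0.11 to 0.13), and 47 to 53 and 20 to 27 other genes. After LPS in aged cells 12 to 21 rose and 5 to 8 fell (0.070 to 0.089), and 34 to 42 and 16 to 20 other genes. In aged against young cells after LPS 3 to 9 were higher and 0 to 2 lower (0.025 to 0.053), and 11 to 18 and 4 to 7 other genes. In the interaction 0 to 1 were higher and 0 to 0 lower (-0.047 to -0.021), and 1 to 3 and 1 to 2 other genes. Counting depth limits Snrpn and Srsf12 to at most 3 counts per library.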
